A study of Arabidopsis thaliana with 22 samples.

Results

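Pol IV occupancy in the zmp-2 mutant was described from the NRPD1-HA peaks of zmp-2 inflorescences. Sites were regions of chromosomes 1 to 5 that held a peak in both replicates and touched no peak of the plants without a transgene. There were 5358 such sites. A separate merge of all 10 hemagglutinin (HA) peak lists of the series, given for scale, held 11203 regions. The zmp-2 sites covered 9.15 Mb, or 7.68% of the nuclear genome. Pol IV is a plant RNA polymerase whose largest subunit is NRPD1. Its short transcripts are made double stranded by RDR2 and cut by DCL3 into 24-nucleotide small interfering RNAs (siRNAs), which guide RNA-directed DNA methylation (RdDM) to transposable elements and other repeats. The chromatin remodelers of the CLSY family and the histone reader SHH1 help to bring Pol IV to chromatin, and ZMP, a protein with a PHD zinc finger, an MDM2/SWIB domain and a Plus-3 domain, interacts with Pol IV.

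The series held 22 samples, 11 of them immunoprecipitates, each with its own peak list, and the others inputs. In chromatin immunoprecipitation followed by sequencing (ChIP-seq), an antibody recovers the DNA bound by a protein, and a peak is a stretch where that DNA exceeds the background. The mutant samples were inflorescences of zmp-2 plants that carried pNRPD1::NRPD1-HA, a tagged NRPD1 driven by its own promoter, with 2 replicates. The controls of the same set were 2 replicates of WT plants with no transgene, and WT plants with pNRPD1::NRPD1-HA gave 2 more replicates. ZMP-HA was profiled in 2 replicates of WT plants carrying pZMP::ZMP-HA, from another set of libraries, and H3K4me3, the mark of active gene 5′ ends, in 1 library of untransformed WT plants. All plants were Col-0, and all groups used here were whole inflorescences grown in long days. The zmp-2 allele is a T-DNA insertion with reduced ZMP transcript, it was the only mutant allele used, and the controls without a transgene were WT and not zmp-2. Whole inflorescences mix cell types, so that fewer cells with Pol IV at a site and less Pol IV per cell cannot be told apart.

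The zmp-2 lists held 7012 and 8655 peaks in replicates 1 and 2, against a background of 440 and 952 in the controls. Depth, read from the background coverage of each list, was 26.6 and 38.7 fragments per base in zmp-2, 25.02 and 41.0 in WT NRPD1-HA and 21.5 and 20.1 in the controls, so the second zmp-2 replicate was the deeper. Merging the zmp-2 lists gave 8887 regions. Of these, 361 came from replicate 1 only, 2839 from replicate 2 only and 5687 from both. The regions in both included 329 (5.79%) that touched a control peak and were removed. Replicate 2 alone, with the same removal, would have given 8239 sites and replicate 1 alone 6588. H3K4me3 covered the 5′ ends of 7 of 9 floral identity genes, among them SEP3 with a fold enrichment of 36.6 and SEP2 with 11.3, and of 7 of 8 housekeeping genes. LFY and AP3 had none at their 5′ end. Of all 27444 protein-coding genes, 15203 had an H3K4me3 peak within 500 bases of the 5′ end, so most genes carried the mark. This library came from WT plants, and the tissue of the mutant was not tested.

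The strongest sites are shown first by their sequence, since they set the upper end of the landscape. Fold enrichment is the coverage at the summit of a peak divided by its background. Sites were ranked by the worse of their places in the 2 lists. The first by this measure was chr3:1209488-1211668 (TAIR10), 2181 bases wide, which overlapped the protein-coding gene AT3G04490 while its summit lay outside any gene. Its fold enrichment was 126 and 229 in zmp-2 replicates 1 and 2, from 3491 and 9096 fragments at the summit. It was 248 and 229 in WT NRPD1-HA, and neither control had a peak there. The next was chr3:15680096-15683590, in a pericentromeric window and over the transcribed pseudogene AT3G43832 and the long noncoding RNA gene AT3G06675. Its fold enrichment was 118 and 226 in zmp-2, and 254 and 223 in WT. The sequences around the summits of these sites, from the RefSeq TAIR10.1 reference, plus strand, are given here because both windows hold the same word of 14 bases, in capitals, on opposite strands.
chr3:1210588-1210738: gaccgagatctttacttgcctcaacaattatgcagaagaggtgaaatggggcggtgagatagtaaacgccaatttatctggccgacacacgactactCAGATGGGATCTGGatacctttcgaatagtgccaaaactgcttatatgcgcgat
chr3:15682385-15682535: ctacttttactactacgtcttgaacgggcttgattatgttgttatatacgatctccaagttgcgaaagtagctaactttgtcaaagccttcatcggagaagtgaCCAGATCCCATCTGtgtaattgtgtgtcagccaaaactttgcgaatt

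The word CAGATGGGATCTGG, searched on both strands, occurred at 5 places in the nuclear genome, all on chromosome 3. It lay within 2 of the 5358 sites, which were the first and the next of this ranking, and the other places, at 13700300, 13775829 and 13777847, were in no site. It was found in 5 of 119144 tiles of 1 kb (0.0042%) and in 2 of 5358 windows of 1 kb around the summits (0.037%). The word was noticed after the sites had been ranked, and it is a description of these windows. No other pair among the 11 windows compared shared more than 10 bases.

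The next 3 sites were as strong. The site chr3:18542180-18547010, overlapping the protein-coding genes AT3G50020 and AT3G50030 and reaching a gene 5′ end, had a fold enrichment of 108 and 228 in zmp-2 and touched an H3K4me3 peak. The site chr4:4098950-4108985 was 10036 bases wide, pericentromeric and over 3 pseudogenes including AT4G06752, with 112 and 199.6 in zmp-2. The site chr2:2864708-2868275 overlapped AT2G06960, with 97.6 and 216 in zmp-2. In all 5, both zmp-2 values exceeded 90 and replicate 2 exceeded replicate 1. Capitals in the windows of these 3 sites mark the bases from the summit of one replicate to that of the other, 14 to 90 bases apart, to show how closely the replicates placed Pol IV.
chr3:18545639-18545789: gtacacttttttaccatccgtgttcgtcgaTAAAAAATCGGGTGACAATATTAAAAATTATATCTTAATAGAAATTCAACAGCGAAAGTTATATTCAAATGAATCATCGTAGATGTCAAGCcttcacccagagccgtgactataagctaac
chr4:4105014-4105164: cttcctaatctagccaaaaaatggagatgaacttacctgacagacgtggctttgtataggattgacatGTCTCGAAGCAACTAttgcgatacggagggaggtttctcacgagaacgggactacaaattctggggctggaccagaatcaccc
chr2:2865762-2865912: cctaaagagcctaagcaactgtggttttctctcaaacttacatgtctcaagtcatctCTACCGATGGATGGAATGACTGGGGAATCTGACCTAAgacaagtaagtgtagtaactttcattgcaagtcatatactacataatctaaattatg

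Fold enrichment over the sites spanned from 1.52 to 158 in replicate 1 and from 1.39 to 241 in replicate 2. The medians were 3.59 and 4.82, with interquartile ranges of 2.61 to 5.22 and 3.17 to 7.10. The replicates ranked the sites alike. Over the 5358 sites, Pearson's r of log2 fold enrichment was 0.885 and Spearman's rho was 0.828, a description of sites that share 2 libraries. Summits of the replicates lay a median of 48 bases apart, and 70.4% of sites had them within 100 bases. Peaks found in both lists were stronger than the others. In replicate 2 the median fold enrichment was 4.66 for the 5816 peaks that met a replicate 1 peak and 2.34 for the 2839 that did not.

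**Figure D1:**
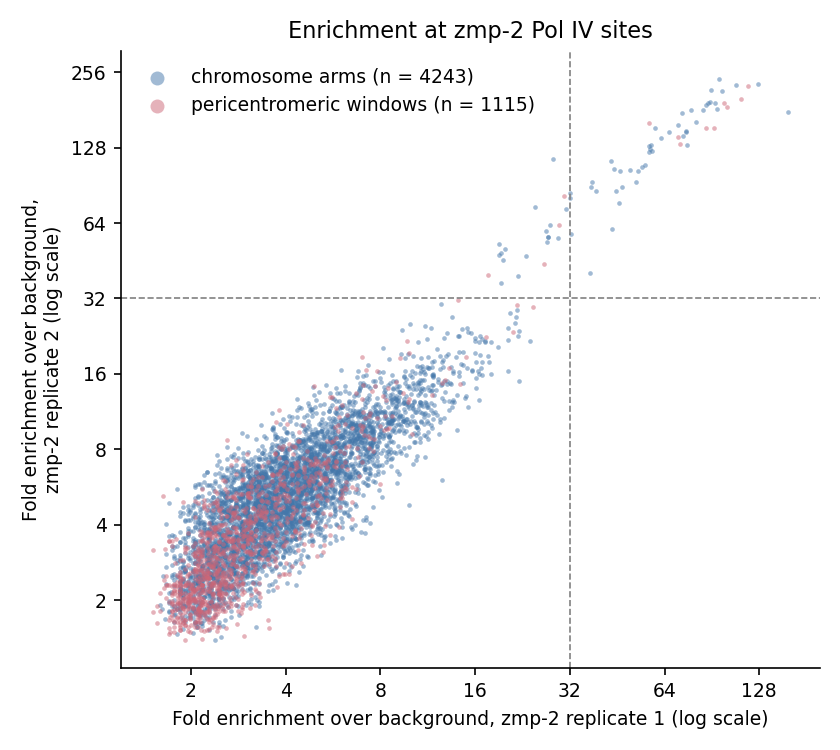
Fold enrichment of each zmp-2 Pol IV site in replicate 1 (x) and replicate 2 (y), both on log scales, with 4243 sites of the chromosome arms in blue and 1115 pericentromeric sites in red. Dashed lines mark a fold enrichment of 32, and the 55 sites beyond both lines form a thin group above the main cloud, whose medians were 3.59 and 4.79.

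A small group of sites stood far above the rest. In replicate 2, 24 sites had a fold enrichment of 22.6 to 32, 5 had 32 to 45.3 and 15 had 45.3 to 64, a dip between 2 fuller ranges. In replicate 1 the same ranges held 16, 10 and 16 sites. The 55 sites with at least 32 in both lists, a threshold set after this dip was seen, are called the strongest sites. The nearest inside it had 32.1 and 84.1, and the nearest outside 31.98 and 80.8. At a threshold of 16 there were 106 sites and at 64 there were 29. The strongest sites had a median fold enrichment of 70.5 in zmp-2 replicate 1 and 143 in replicate 2. In WT NRPD1-HA the same sites had medians of 165 and 186, so both mutant medians lay below both WT medians. The replicates of the mutant differed here by a median ratio of 2.10, against 1.26 at the other sites and 1.08 between the WT replicates at the strongest sites. The difference between mutant replicates was thus larger than the difference between WT replicates at these sites, and its cause was not tested.

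The strongest sites were wide, with a median width of 3353 bases, against 1076 for the other 5303 sites. Of the 55, 39 overlapped a protein-coding gene (70.9%, 95% exact binomial interval 57.1 to 82.4), against 32.9% of the others (31.6 to 34.2). That interval holds the 67.4% of all 1 kb tiles that overlapped one. What the greater width added to this overlap and to those given below was not tested. Of the 55, 9 were pericentromeric (16.4%, 7.77 to 28.8), an interval that holds the 20.9% of the others. Their median share of bases in repeated 31-base words was 8.39%, against 24.1% for the others. All 55 held a peak in both WT NRPD1-HA lists, against 82.2% of the others. All 55 also held one in both ZMP-HA lists, against 43.2% of the others. The median ZMP-HA fold enrichments were 10.3 and 11.5, against 2.71 and 2.48 where the others had a peak. Of the 55 highest ZMP-HA peaks, 42 in replicate 1 and 49 in replicate 2 lay on the strongest sites or on the 6 equally strong regions that had been removed. These 6 had a fold enrichment of 44.8 to 194 in zmp-2 and touched control peaks of only 2.18 to 2.98. The 3 best of them were chr3:5778689-5781575 (AT3G16930 and AT3G16940), chr5:22701274-22710334 (AT5G56050) and chr4:12433411-12436423 (AT4G23920, UGE2, a UDP-glucose epimerase gene). With them the strongest regions numbered 61.

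At the opposite end, the lowest ranked site was chr2:5251432-5254449, over the pseudogenes AT2G12780 and AT2G12800. It had a fold enrichment of 1.52 in replicate 1, from 55 fragments over a background of 36.1, and 3.17 in replicate 2. The site before it was chr4:9484034-9484731, over the pseudogene AT4G16870, with 2.40 and 1.39. Each of these had a peak in 1 of the WT NRPD1-HA lists. In each of the pair, 1 replicate had its lowest value over the 5358 sites and the other did not.

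Pol IV sites of the mutant gathered around the gene-poor centers of the chromosomes without filling them. Density was 96.3 and 97.3 sites per Mb at 1 to 2 and 2 to 3 Mb from the gene-poorest point of each chromosome, 42.0 in the innermost Mb and 13.1 at 14 to 15 Mb. Sites covered 20.5% of the bases at 1 to 2 Mb and 1.77% at 14 to 15 Mb. Of the 5358 sites, 1115 lay in pericentromeric windows (20.8%, 19.7 to 21.9), which held 14.4% of the genome. The excess depended on how replicate peaks were matched. The share was 15.5% when the peaks had to overlap by 50% of each, and 15.2% under an irreproducible discovery rate of 0.05. Pericentromeric windows are the runs around the gene-poorest point where protein-coding gene density stayed under 50% of the chromosome median. Density was 65.2 sites per Mb in these windows and 41.6 in the arms. With a limit of 25% of the median in place of 50%, the windows held 8.98% of the sites and 9.32% of the genome, so the excess was no longer seen in the innermost windows. By chromosome, the density in these windows ranged from 51.03 sites per Mb on chromosome 4 to 73.9 on chromosome 1, with 69.1, 70.7 and 58.9 on chromosomes 2, 3 and 5. In each chromosome it exceeded that of the arms, which ranged from 38.2 to 49.7.

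**Figure D2:**
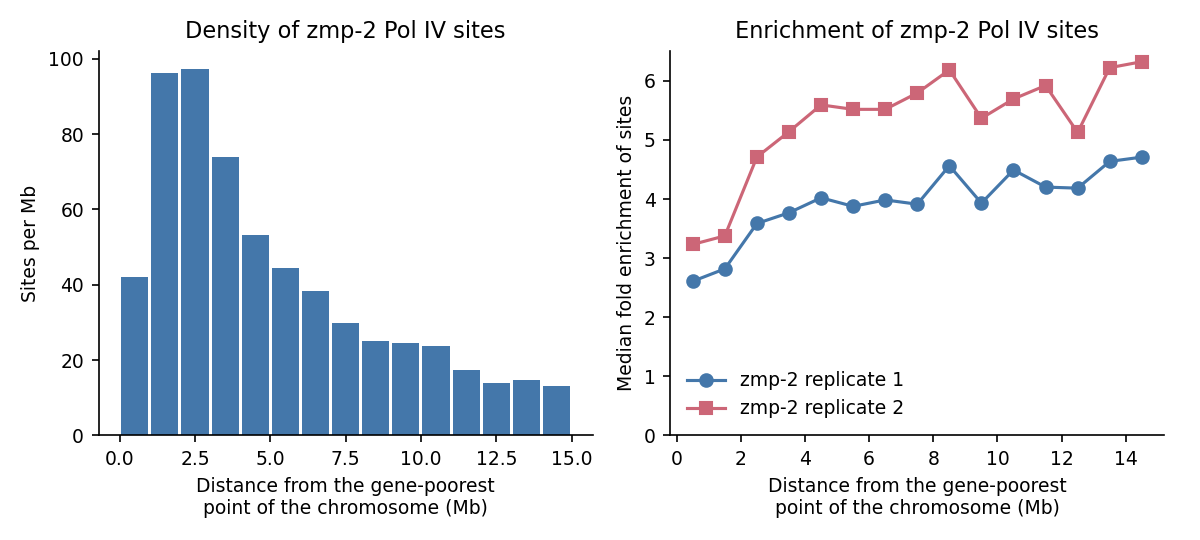
Left, bars give zmp-2 Pol IV sites per Mb by distance from the gene-poorest point of the chromosome, over all 5 chromosomes and both sides. Right, the median fold enrichment of the same sites in each replicate. Density was highest at 1 to 3 Mb, at 96.3 and 97.3 sites per Mb, where enrichment was still lower than farther out.

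Sites of the arms and of the pericentromeric windows differed in strength and form. The 4243 arm sites had median fold enrichments of 3.88 and 5.27, and the 1115 pericentromeric sites 2.68 and 3.22. In both replicates the arm median was the higher. Pericentromeric sites were wider, with a median of 1489 bases against 1003. The same order of strength was seen over all peaks of each library, where the pericentromeric median was 0.667 and 0.552 of the arm median in zmp-2 and 0.640 and 0.624 in WT NRPD1-HA. At the 4416 sites with a peak in both WT lists, the ratio of the pericentromeric to the arm median was 0.655 and 0.588 in zmp-2 and 0.801 and 0.785 in WT. The 2 mutant values lay below the 2 WT values (exact two-sided permutation test over 4 libraries, p = 0.33, the smallest p that 2 against 2 allows). These sites were called in the mutant, which bears on the WT values.

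The pericentromeric share of peaks was 25.8% and 27.8% in the zmp-2 libraries, a mean of 26.8 ± 1.39 (SD, n = 2). In the controls without a transgene it was 40% and 61.4%, a mean of 50.7 ± 15.2 (n = 2). The zmp-2 share was lower by 23.9 percentage points (exact two-sided permutation test, p = 0.33, n = 2 and 2). Without control replicate 2 the difference was -13.2 points. In WT NRPD1-HA it was 33.8% and 31.8%, a mean of 32.8 ± 1.36, and the zmp-2 share was lower by 5.97 points with no overlap (exact permutation p = 0.33). With 2 libraries a group, neither difference can pass a threshold of 0.05. The depths given above overlapped between zmp-2 and WT NRPD1-HA, and both control libraries were shallower than both.

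Sites sat mostly outside protein-coding genes. Of the 5358 sites, 1784 overlapped one (33.3%, 32.03 to 34.6), against 67.4% of all 1 kb tiles, and 2189 overlapped no annotated gene (40.9%, 39.5 to 42.2). Seen from the genes, 1988 of 27444 protein-coding genes (7.24%) were overlapped by a site. In the annotation used, many transposable element genes carry the class of pseudogene. Of 3917 pseudogenes, 1341 were overlapped (34.2%, 32.7 to 35.7), against 10.7% of the 37899 genes of all classes and 389 pseudogenes (9.93%) overlapped by a control peak. In the arms 750 of 1438 pseudogenes held a site (52.2%), against 9.18% of arm genes of all classes. In the pericentromeric windows 591 of 2479 pseudogenes did (23.8%), a share near the 24.4% of all genes there. WT NRPD1-HA sites, called by the same rule, overlapped 1717 pseudogenes (43.8%) and 1732 protein-coding genes (6.31%). These counts were lower in the mutant for pseudogenes and higher for protein-coding genes, from 2 libraries each and with no test.

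Among the other classes, 48 of 326 microRNA genes (14.7%), 357 of 3480 long noncoding RNA genes (10.3%) and 16 of 625 tRNA genes (2.56%) were overlapped. Sites whose longest overlap was a pseudogene were the widest, with a median of 2205 bases, and 52.2% of their bases were in repeated words at the median. Of these 1167 sites, 94.8% had a peak in both WT lists and 77.5% in both ZMP-HA lists. For the 2189 sites outside genes these shares were 76.2% and 24.3%. The sites outside genes were narrower, with a median of 857 bases, and 16.7% of them were pericentromeric, against 44.2% of the pseudogene sites. What width and position added to the overlaps was not tested.

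The 3 widest sites lay in the arms, largely over pseudogenes. The widest was chr1:12711684-12731670, 19987 bases over AT1G34690 to AT1G34740, with a fold enrichment of 49.6 and 104 in zmp-2. The others were chr1:16945974-16962475 (AT1G44840 to AT1G44880, 5.03 and 4.46) and chr3:17401842-17418215 (AT3G47250 to AT3G47280 and the microRNA gene MIR2933b, 6.16 and 6.90). From 73.8% to 93.5% of the bases of these sites were in repeated words, so reads there could have come from other copies. In all, 294 sites were at least 5 kb wide, and 84 of them (28.6%) were pericentromeric.

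Repeated sequence and base composition set the sites apart from the genome within the arms. Over the 1 kb around their summits, arm sites had a median of 16.7% of bases in repeated words and 32.3% GC, against 0% and 36.5% for all arm tiles and 0% and 29.4% for arm tiles without a gene. In the pericentromeric windows the sites had 39.9% repeated bases, less than the 49.1% of tiles there. The share of arm tiles with a site was 4.42% where no base was repeated, 28.9% at 10 to 50% 41.7% at 50 to 90% and 35.4% above 90%, against 10.6% of all arm tiles and 12% of all tiles. In the pericentromeric windows the same shares were 16.8%, 24.6%, 19.2% and 16.5%, against 20.04% of all tiles there.

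Over all sites and in the arms, the share of mutant sites at gene 5′ ends was close to that of 1 kb tiles, while in the pericentromeric windows it was higher. Sites varied in width and tiles did not, and what width added to these shares was not tested. Within 500 bases of the 5′ end, 2706 of 27444 protein-coding genes had a site (9.86%), and 2263 sites (42.2%, 40.9 to 43.6) lay there, against 40.1% of all 1 kb tiles. In the arms the share was 47.7% of sites and 45.2% of tiles, and in the pericentromeric windows 21.4% and 9.85%. In WT the same count was 2370 genes (8.64%). The share was 11.2% for the 12241 genes with no H3K4me3 peak at the 5′ end (10.6 to 11.7) and 8.82% for the 15203 genes with one (8.37 to 9.28). The order was the reverse in the pericentromeric windows, where 39.7% of 287 marked genes (34.0 to 45.6) and 25.9% of 606 unmarked ones (22.5 to 29.6) had a site. Inside the gene the contrast was larger, since 652 genes with the mark (4.29%) and 1336 without it (10.9%) were overlapped by a site. Around marked 5′ ends, the share of genes covered by a site was 8.77% at 700 bases upstream, 2.60% at the 5′ end and 0.704% at 500 bases downstream. Around unmarked 5′ ends it was 7.95% at 1200 bases upstream and 5.54% at the 5′ end. The maximum exceeded the minimum 12.5-fold in the marked genes and 1.49-fold in the unmarked ones.

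**Figure D3:**
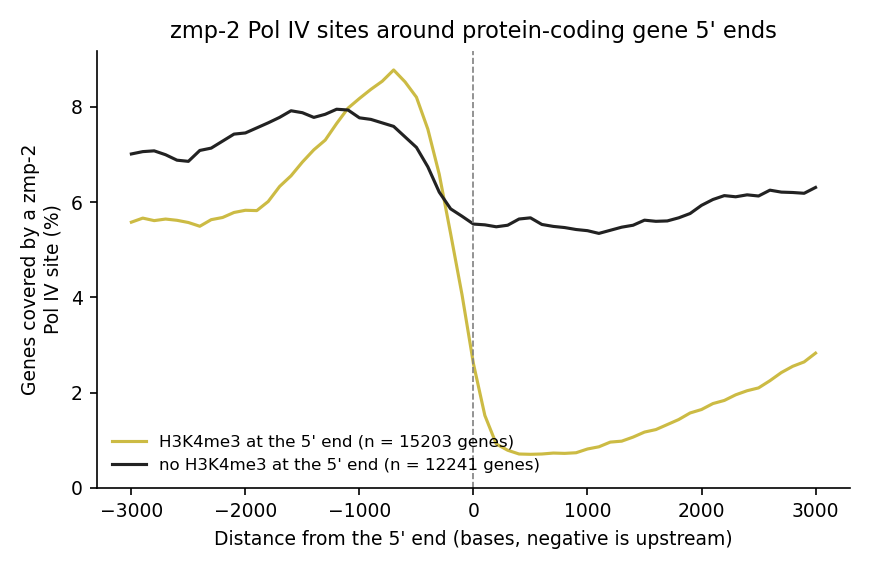
Share of protein-coding genes covered by a zmp-2 Pol IV site (y) at each distance from the 5′ end (x, in steps of 100 bases), for 15203 genes with an H3K4me3 peak within 500 bases of the 5′ end and 12241 without. In marked genes the share was 8.77% at 700 bases upstream and 0.704% at 500 bases inside the gene, while in unmarked genes it stayed between 5.34% and 7.95%.

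H3K4me3 itself, from 1 WT library with no replicate check, overlapped 663 sites (12.4%, 11.5 to 13.3), against 22.7% of 1 kb tiles. Of the summits, 126 (2.35%, 1.96 to 2.79) lay within an H3K4me3 peak, and H3K4me3 peaks covered 6.74% of the genome. The 3 best sites that touched the mark included chr3:9706415-9709952, over AT3G26490, AT3G05025 and AT3G26500 (PIRL2), with a fold enrichment of 89.0 and 195 in zmp-2 and 3.46 for H3K4me3. The 3 best at gene 5′ ends included chr1:4505051-4508055 (AT1G13200, 92.5 and 193) and chr2:4102791-4110763 (AT2G10556, AT2G10557 and AT2G10560, 101 and 185). The 3 best pericentromeric sites included chr3:14727359-14731793, which overlapped HA8, a plasma membrane proton pump gene, with 98.6 and 192.

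The features of the sites shifted with their strength. When the sites were split by the worse of their 2 ranks into 10 groups of equal size, from group 1 (strongest) to group 10 (weakest), the pericentromeric share was 10.3% in group 1 (7.82 to 13.1) and 51.4% in group 10 (47.1 to 55.7). The share near a 5′ end was 63.4% in group 1 and 16.8% in group 10, and the median share of repeated bases 11.4% and 44.8%. The share with a peak in both WT lists was 97.9% in group 1 and 73.8% in group 10. Overlap with both ZMP-HA lists was 65.9% in group 1, 35.1% in group 7 and 53.5% in group 10, so that the middle of the range held the fewest.

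**Figure D4:**
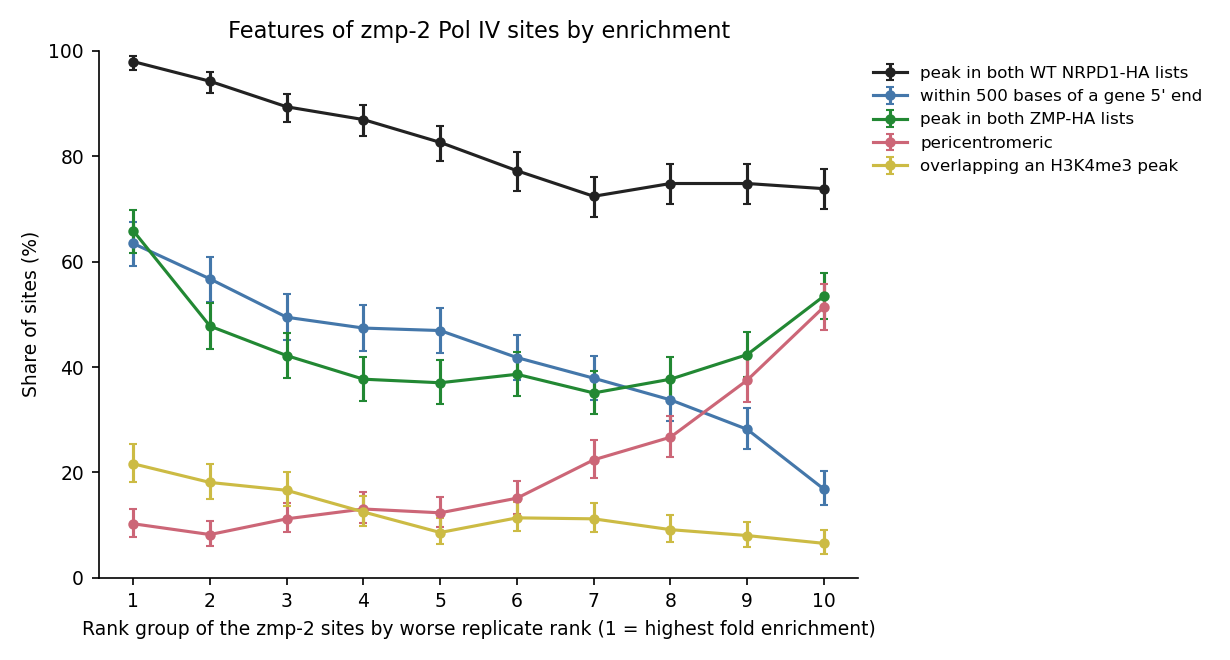
Share of zmp-2 Pol IV sites (y, with 95% exact binomial intervals) that carried each of 5 features, by rank group of the sites from the strongest to the weakest (x, 535 or 536 sites each). Overlap with both WT NRPD1-HA lists was 97.9% in group 1 and 73.8% in group 10, and the pericentromeric share was 10.3% and 51.4%.

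Most mutant sites were also occupied in WT. Both WT NRPD1-HA lists had a peak on 4416 sites (82.4%, 81.4 to 83.4), 528 sites met a peak of 1 list and 414 (7.73%, 7.03 to 8.47) met none. Mutant and WT sites were called against the same controls. The 414 sites with no WT peak were narrow, with a median of 599 bases against 1267 for the 4416. They were weaker, with medians of 2.99 and 3.99 against 3.88 and 5.09, and 32 of them were pericentromeric (7.73%, against 22.7%). Their median repeated share was 3.98%, against 27.4%. The shares near gene 5′ ends had overlapping intervals, at 43.5% (38.6 to 48.4) and 43.0% (41.5 to 44.5). A missing WT peak means only that the signal did not pass the threshold of that list.

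Some genes of the RdDM pathway itself had a mutant site, at a share that was not tested against that of all genes. Of 27 listed RdDM genes, 6 (22.2%) had a site within 500 bases, against 14.5% of all 27444 protein-coding genes. Of 12 other genes that add or remove DNA or H3K9 methylation or, as the remodeler DDM1, maintain it, none had one. They included the methyltransferase genes MET1 and CMT3 and the demethylase genes ROS1 and DME. The 9 floral identity and 8 housekeeping genes had none either. NRPD2 encodes the second largest subunit, shared by Pol IV and Pol V. A site of 735 bases (chr3:8574285-8575019) lay upstream of it, with the summit 446 bases before the 5′ end. Its fold enrichment was 4.35 and 12.7 in the zmp-2 replicates, from 119 and 505 fragments, and neither WT NRPD1-HA list nor either control had a peak there. DCL3, which cuts the siRNAs, had an upstream site with the summit 500 bases before the 5′ end. It had 2.21 and 3.58 in zmp-2 and likewise no WT peak. Both zmp-2 libraries thus showed peaks at these genes where both WT lists showed none, and the replicates differed in height.

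CLSY4, one of the remodelers, had an upstream site with 3.88 and 6.47 in zmp-2 and 3.31 and 4.14 in WT. The sites at RDR2 and at DMS3, a member of the DDR complex that acts with Pol V, lay beyond the 3′ end. RDR2 had 2.06 and 2.49 in zmp-2, and a peak of 2.64 in only 1 WT list. DMS3 had 8.09 and 5.14 in zmp-2 and 11.5 and 5.24 in WT. At NRPD1 a site covered the 5′ end, with 4.22 and 9.003 in zmp-2 and 5.04 and 6.78 in WT. The background there was 76.3 and 116 fragments per base, against 26.6 and 38.7 for most peaks, and control replicate 2 had a peak of 2.16 near the gene. The transgene carries the NRPD1 promoter, and its reads cannot be told apart from those of the gene itself. ZMP had no peak within 500 bases in any NRPD1-HA or control list, and its 5′ end held H3K4me3 at 28.9. Of its 4 relatives, NERD had an upstream site with 2.28 and 4.03 in zmp-2.

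**Figure D5:**
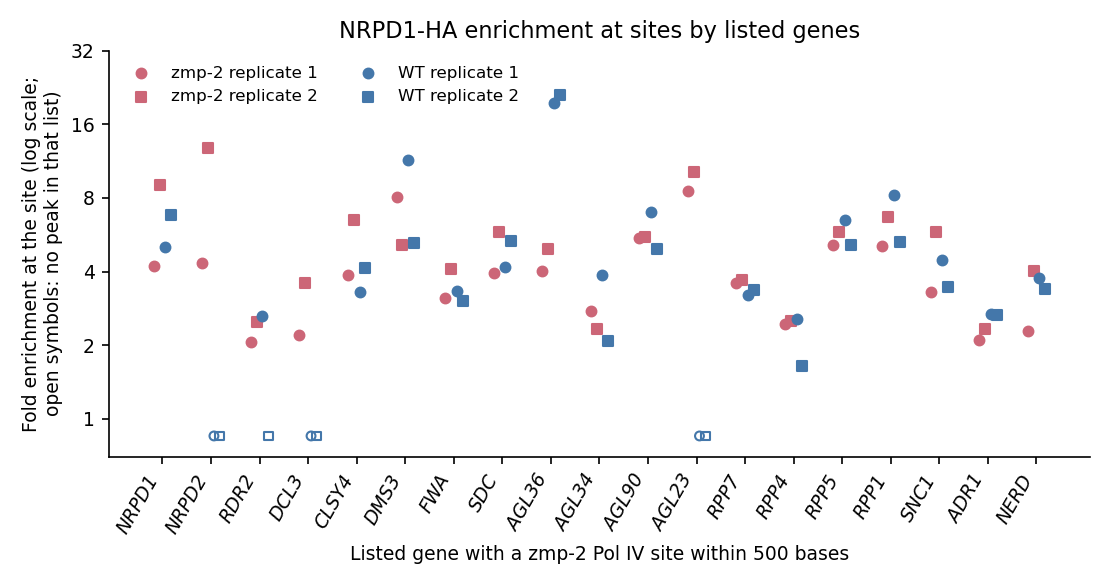
Fold enrichment (y, log scale) at the zmp-2 Pol IV site nearest each listed gene (x), with 1 point for each zmp-2 (red) and WT (blue) NRPD1-HA library and open symbols where a list had no peak. NRPD2, DCL3 and AGL23 had peaks in both zmp-2 lists and in no WT list, and AGL36 had 4.02 and 4.94 in zmp-2 against 19.6 and 21.0 in WT.

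Of 7 known RdDM targets, FWA and SDC had a site. Both are silenced through repeats at their promoters. The FWA site (chr4:13038100-13038861) covered the 5′ end, with 3.12 and 4.08 in zmp-2 and 3.34 and 3.02 in WT. The SDC site (chr2:7680945-7682574) had 3.95 and 5.79 in zmp-2 and 4.19 and 5.36 in WT, with the summit 148 bases upstream of the 5′ end. At both genes the mutant and WT values overlapped. The window around the SDC summit is shown because the summit lay on repeats. A word of 23 bases, in capitals, occurred 3 times, and copies began 32 bases apart.
chr2:7681939-7682089: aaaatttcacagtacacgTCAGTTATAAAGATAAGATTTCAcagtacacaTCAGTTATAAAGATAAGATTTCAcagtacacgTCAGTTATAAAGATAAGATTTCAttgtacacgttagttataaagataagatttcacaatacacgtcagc

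Type I MADS-box genes encode transcription factors, many of which act in the female gametophyte and the endosperm. Of 13 listed, 4 (30.8%) had a site. AGL36, an imprinted member, lay in a site of 6757 bases (chr5:9340175-9346931) with 4.02 and 4.94 in zmp-2, from 110 and 195 fragments. The zmp-2 summits lay outside the gene and 2593 bases apart, with their midpoint at -1956 bases from its 5′ end. The values are thus those of the wide region and not of AGL36 itself. In WT NRPD1-HA the same region had 19.6 and 21.0, so the mutant values lay far below the WT values with no overlap. AGL23, which acts in the embryo sac, showed the reverse. Its site (chr1:24281168-24281839) lay over the 5′ end, with the summit 124 bases inside the gene, at 8.55 and 10.3 in zmp-2 and with no peak in either WT list. AGL34 had 2.75 and 2.32 in zmp-2, against 3.88 and 2.07 in WT. A site of 13236 bases reached AGL90, with 5.51 and 5.54 in zmp-2 and 7.03 and 4.95 in WT, but its summit was at -10348 bases from the 5′ end of that gene, that is, far upstream. Windows are given for NRPD2 and then AGL23, as sites where neither WT list had a peak and the zmp-2 summits, in capitals, lay 1 base apart.
chr3:8574579-8574729: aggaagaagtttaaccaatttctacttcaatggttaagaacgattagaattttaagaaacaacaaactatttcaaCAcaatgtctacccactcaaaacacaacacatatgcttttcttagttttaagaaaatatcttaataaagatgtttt
chr1:24281385-24281535: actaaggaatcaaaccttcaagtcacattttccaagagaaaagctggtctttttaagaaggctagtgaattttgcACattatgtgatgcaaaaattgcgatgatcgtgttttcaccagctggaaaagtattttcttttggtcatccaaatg

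Disease resistance genes of the NLR family, intracellular immune receptors that often lie in clusters with repeats, had sites at 6 of 14 listed genes (42.9%), and 0 of these 6 at the 5′ end. Of all 27444 protein-coding genes, 9.86% had a site at the 5′ end, so few would be looked for in a list of 14. The gene annotated as RPP5 (AT4G16950), which in Col-0 is not the functional RPP5 of other accessions, had 5.14 and 5.79 in zmp-2, against 6.50 and 5.12 in WT. SNC1, of the same cluster, had 3.31 and 5.79 against 4.46 and 3.45, and RPP4, also of it, 2.44 and 2.52 against 2.56 and 1.64. The RPP4 site overlapped the gene, but its summit lay beyond the 3′ end. RPP7 had 3.58 and 3.68 against 3.22 and 3.36 at the better of 2 sites. The sites of RPP1 and of the helper gene ADR1 lay beyond the 3′ end and did not overlap the gene. RPP1 had 5.11 and 6.70 against 8.23 and 5.26, and ADR1 2.10 and 2.32 against 2.69 and 2.67. The mutant and WT values overlapped at 4 of these 6 genes, both mutant values were the higher at RPP7 and both were the lower at ADR1. Members of such clusters are near-identical in places, so their peaks are uncertain as to the copy. The lists were chosen with earlier results of these data known, and their shares are descriptions beside the 14.5% of all protein-coding genes.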

How the data were processed

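ChIP-seq of Arabidopsis thaliana inflorescences was analyzed from the deposited peak lists, with samples grouped by genotype, transgene and set from the labels. Reads were processed by the authors, who according to the methods trimmed them with Trim Galore 0.4.3, aligned to TAIR10 with Bowtie2 2.2.9 and called peaks with MACS2 2.2.6 against input. The methods do not state which input served which library or a filter on mapping quality. The deposited lists give a position, a score, the fold enrichment at the summit (a ratio), and the significance of each peak as −log10 of its p-value and of its q-value, the last at 0.05 or less throughout. Calls are not read counts, and signal absent from a list may be just under its threshold, and a deeper library passes at weaker enrichment.

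Fragments at the summit and background were solved from the fold enrichment and p-value. The p-value was an input, so its return to within 1% in 100% of cases checks only the arithmetic. The solved fragments were whole numbers, to within 0.01, at 99.6% and 99.8% of zmp-2 peaks. In the controls of the same set these shares were 95.9% and 96.5%. Peaks sharing at least 1 base were merged. Fold enrichment of a site is its highest peak in each list. Annotation was RefSeq TAIR10.1, whose nuclear chromosomes match the lists. Transposable element annotation was not used here. Pericentromeric windows used 100 kb windows averaged over 1 Mb. Repeated words were 31-mers found more than once in the genome. Shares carry 95% exact binomial (Clopper-Pearson) intervals, which cover counting error over sites only. The tests were exact permutation tests over libraries. Replicates are described by the study as biological, and the labels give only their numbers, so p-values measure the spread between these samples. Sites are not replicates, and no test was run over them.

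Named sites were the 5 whose worse rank in the 2 lists was best, the 3 best that were pericentromeric, at a 5′ end or on H3K4me3, the 3 widest, the 2 last and the 3 best removed. Genes named were NRPD1, ZMP and listed genes with a site within 500 bases. The members and gene lists were chosen with earlier results of these data known. As alternatives, stricter calls (q of 0.01), 50% reciprocal overlap, control removal left out or made against 4 lists, an irreproducible discovery rate (IDR) of 0.05, lists of equal length, leaving out each library, other windows and distances, and a replicate block were tried. Scripts were tested on simulated data. The labels list no antibody for the controls without a transgene. Analyses used Python 3.11.15 with numpy 2.4.6, scipy 1.17.1 and pandas 2.3.3.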

Additional observations from a re-analysis of the deposited data

How the results depend on the processing

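Under a q-value of 0.01 and under removal against all 4 control lists, the number and median width of sites stayed within the spread between replicates. So did the number of genes at 5′ ends and the pericentromeric, protein-coding, H3K4me3 and WT shares of sites. Gene classes, rank groups and profiles around 5′ ends were not recalculated under the alternatives. A reciprocal overlap of 50% gave 4133 sites, a median width of 910 bases, 15.5% pericentromeric, 35.7% on protein-coding genes and 11.9% on H3K4me3. An IDR of 0.05 gave 4301 sites with 15.2%, 35.7% and 13.7%, lists of equal length gave 17.96%, 34.3% and 12.9%, and no control removal gave 22.5%, 33.0% and 13.1%. A gene density under 25% of the median, which left 9.32% of the genome, gave 8.98% pericentromeric sites. Leaving out 1 library at a time gave from 5419 to 8239 sites, the highest without zmp-2 replicate 1, which is the deeper replicate alone. The median width then ranged from 695 to 1127.5 bases, the pericentromeric share from 20.9% to 26.3% and the protein-coding share from 26.3% to 33.4%. The H3K4me3 share ranged from 8.80% to 13.0%, the share in both WT lists from 64.5% to 83.0% and the genes at 5′ ends from 2495 to 3294. Without WT replicate 1 or 2, the share that met the single remaining WT list was 89.1% or 85.6%. The pericentromeric difference from controls stayed between -34.6 and -13.2 points, and that from WT between -6.95 and -4.98. With a replicate block the differences were -23.9 and -5.97 (exact sign-flip test, p = 0.5, the smallest that 2 pairs allow), and the numbers mark only replicates. Thresholds of 16 and 64 for the strongest sites, the strongest sites without each zmp-2 replicate (77 without replicate 1 and 55 without replicate 2), and enrichment and base composition at other calls were tried after the data were seen. The 2839 regions called in replicate 2 only had a median fold enrichment of 2.34, and the part of depth in this was not tested.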
